A study of Mus musculus with 6 samples.

Results

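The genes described here make, load, move, sense and break down GABA (gamma-aminobutyric acid), the main inhibitory transmitter of the brain. A list of 26 genes was chosen by symbol for these functions. All 26 had a row among the 33000 genes of the count table, and all 26 were among the 15341 genes that passed a filter on low counts and were tested. They comprised 10 subunits of the GABA-A receptor, 2 subunits of the GABA-B receptor, 3 genes of GABA synthesis and vesicular loading, 2 of uptake, 2 of breakdown, 2 of the inhibitory postsynaptic scaffold, 2 chloride cotransporters and 3 genes of the GABARAP family. Whole-transcriptome libraries were made with the Illumina TruSeq mRNA protocol from the frontal cortex of 3-month-old mice. Of these mice, 3 were homozygous for the GFAP-IL6 transgene and 3 were wild-type (WT). The study names the C57BL/6 strain for the WT mice and does not state the strain of the GFAP-IL6 mice. In GFAP-IL6 mice the promoter of Gfap, an astrocyte gene, drives the inflammatory cytokine IL6, so the cytokine is made by the animal's own astrocytes and is not given at a chosen time. The labels name no treatment of either group and no sex. The only comparison in the design is GFAP-IL6 against WT, and the study used these libraries as a reference for another library protocol.

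GABA is made from glutamate by the glutamate decarboxylases of inhibitory neurons and is loaded into synaptic vesicles by a dedicated transporter. Once released it opens GABA-A receptors, which are chloride channels built of several kinds of subunit, and activates GABA-B receptors, which act through G proteins and require both of their subunits. Transporters of neurons and astrocytes then clear it, and mitochondrial enzymes break it down. Whether an open GABA-A channel inhibits a cell depends on the chloride gradient, which chloride cotransporters set. In the cortex GABA is made by a minority of neurons, the interneurons, whereas most other neurons carry its receptors. In bulk tissue fewer cells of a type and less RNA per cell cannot be told apart.

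Library totals ranged from 11591066 to 16877001 counts in WT and from 7559524 to 11072008 in GFAP-IL6, so each GFAP-IL6 library was shallower than each WT library. The transgene labels were checked with Il6, whose counts were 0, 2 and 0 in the WT mice and 12, 10 and 24 in the GFAP-IL6 mice, and with Gfap, at 76.5, 123 and 84.2 CPM in WT and 517, 646 and 870 CPM in GFAP-IL6 (CPM, read counts per M, for mega, of the TMM-scaled library total). Markers of cortical excitatory neurons were present in every library at a summed level of 5033 to 6238 CPM. WT replicate 2 stood apart. Its 14 striatal neuron markers summed to 521 CPM against 267 to 342 CPM in the other libraries, and 13 of the 14 were highest there. Its genes of low GC content were also higher and its genes of high GC content lower than in the other libraries, with median log2 deviations of 0.14 in the lowest and -0.11 in the highest of 5 equal classes by GC content. In the same way its short genes were higher and its long genes lower, with 0.18 in the shortest and -0.11 in the longest of 5 equal classes by gene length. Choroid plexus markers summed to 628 CPM in WT replicate 3 against 5.14 to 63.0 CPM elsewhere. Microglial and endothelial markers were higher in GFAP-IL6, with 8 of 10 and 6 of 10 genes called at an adjusted p under 0.05 by edgeR, and 9 and 6 without WT replicate 2. WT replicate 2 was the highest library for 11 and the lowest for 8 of the 26 GABA genes, and GFAP-IL6 replicate 3 was the lowest for 9.

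**Figure D1:**
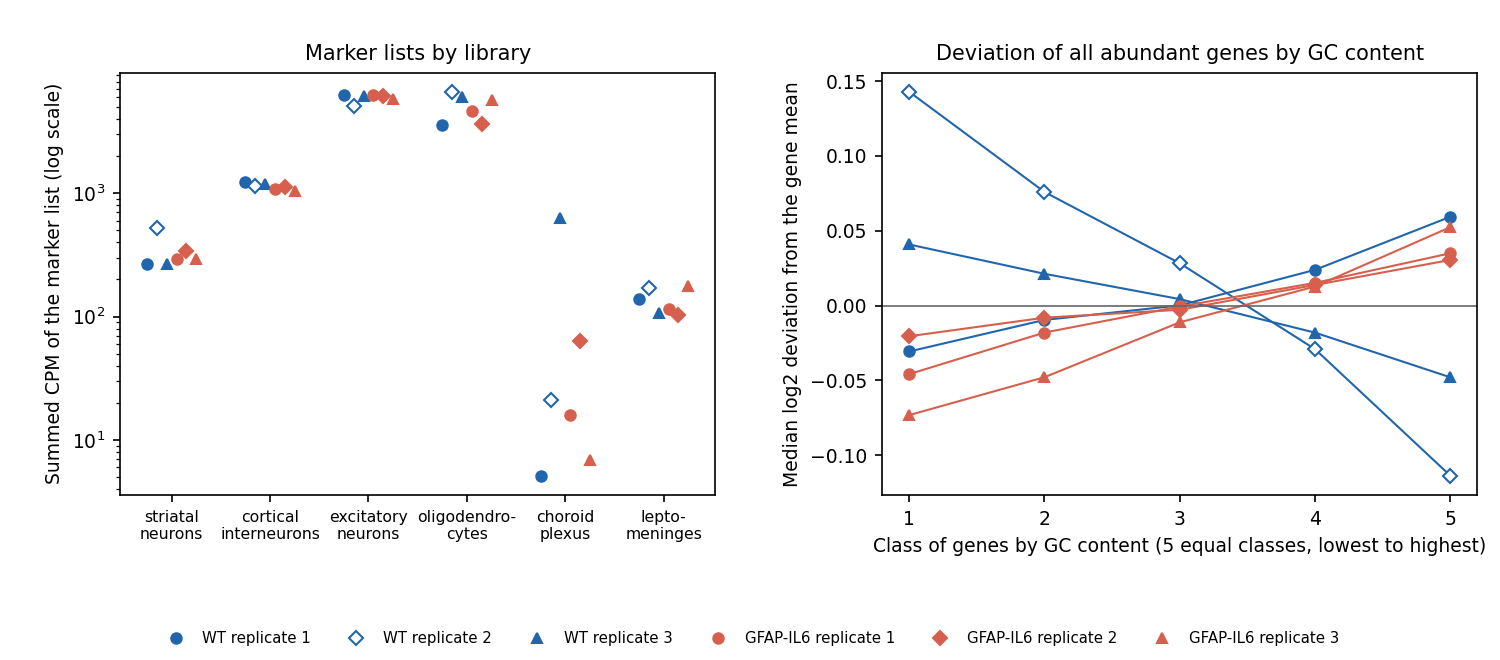
Left, the summed CPM of 6 lists of marker genes (log axis) in each of the 6 libraries, where striatal markers reach 521 CPM in WT replicate 2 and choroid plexus markers 628 CPM in WT replicate 3. Right, the median log2 deviation of each library from the gene mean in 5 equal classes of genes ordered by GC content, where WT replicate 2 runs from 0.14 in the lowest class to -0.11 in the highest.

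None of the GABA genes was called different between GFAP-IL6 and WT. By edgeR's quasi-likelihood test, 0 of 26 had an adjusted p under 0.05 (Benjamini-Hochberg over all 15341 genes), and DESeq2 and limma-voom also gave 0. Of all genes tested, 2.65% were called higher and 0.209% lower in GFAP-IL6, and 1.38% were called at the study's threshold, which also asks for an absolute log2 fold change over 1. The smallest adjusted p of a GABA gene was 0.113, for Gabrg1, and the largest 0.989. The log2 fold changes, GFAP-IL6 against WT, ran from -0.37 for Gabrg1 to 0.20 for Slc6a13, and their median was -0.087 beside -0.0038 over all genes tested. For the 24 GABA genes with a mean above 10 CPM the 95% intervals of the fold change lay between 0.648 and 1.33, and differences smaller than the interval of a gene were not detectable with 3 mice per group.

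Before adjustment, 5 of the 26 genes had a p under 0.05, all of them lower in GFAP-IL6 (Gabrg1, Gad1, Gabra4, Gabarapl1 and Gad2), and 0 were higher. The shares of all genes tested were 9.37% lower and 11.1% higher. The 3 GFAP-IL6 libraries did not overlap the 3 WT libraries in 6 genes that were lower (Gabra4, Gabrg3, Gad1, Gad2, Gabarapl1 and Gabarapl2) and 1 that was higher (Gabrb1), beside 12.7% and 13.8% of all genes. In all, 18 of the 26 genes had a negative and 8 a positive log2 fold change. Without WT replicate 2, 0 of the 26 were called, as against 3.27% of all genes in either direction. At an unadjusted p under 0.05, 2 were then lower (Gabrg1 and Gad1) and 1 higher (Gabra2), beside 5.96% and 9.93% of all genes, and the median log2 fold change was -0.084. With an offset for GC content and gene length, 6 of the 26 had an unadjusted p under 0.05, all of them lower (Gabra4, Gabrg1, Gabrg3, Gabbr1, Gad1 and Gad2), beside 6.56% of all genes lower and 18.6% in either direction. Without WT replicate 1, Gabrg1 was called (log2 fold change -0.48, edgeR adjusted p = 0.0176), beside 6.83% of all genes. In that fit 5 GABA genes were lower and 2 higher at an unadjusted p under 0.05, beside 12.9% and 14.6% of all genes. Without GFAP-IL6 replicate 1 there were 3, all lower, beside 5.70% of all genes, and without GFAP-IL6 replicate 3 there was 1, also lower, beside 4.91%.

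**Figure D2:**
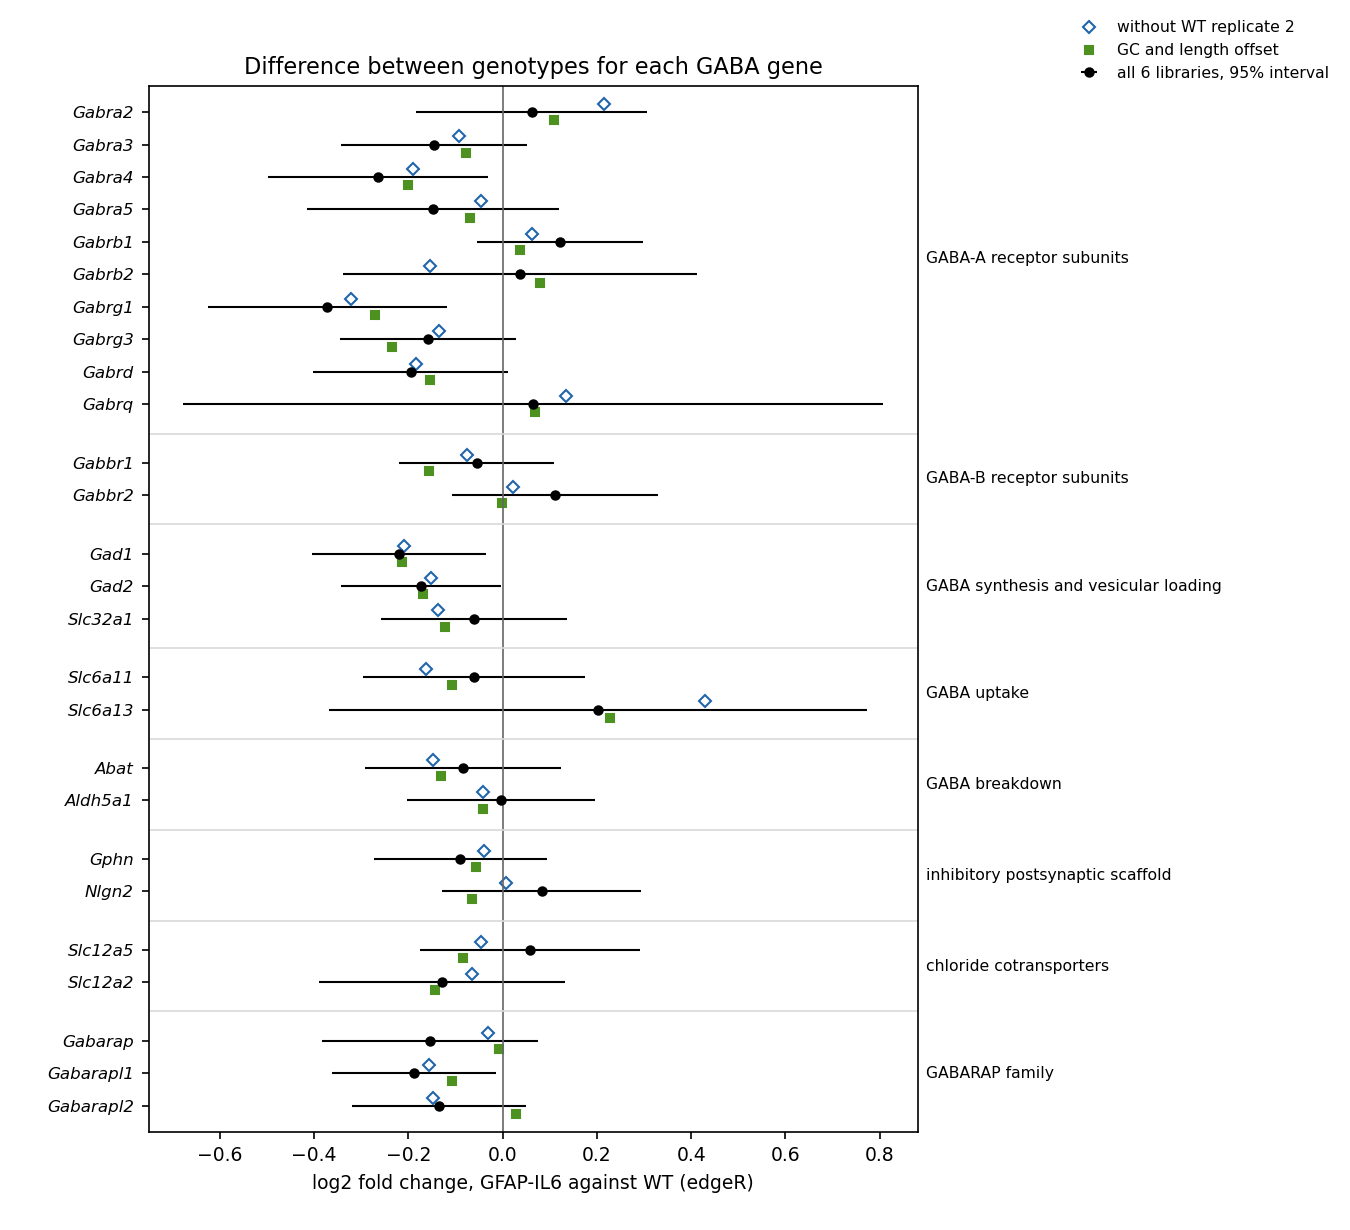
Log2 fold change of each of the 26 GABA genes, GFAP-IL6 against WT, by edgeR (black points with 95% intervals, 6 libraries), without WT replicate 2 (open diamonds) and with an offset for GC content and gene length (green squares). Only the intervals of Gabrg1, Gabra4, Gad1, Gad2 and Gabarapl1 do not reach 0, and these 5 are all below it.

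Transcript levels spanned a wide range. On a scale that divides by gene length (TPM, so that genes can be compared), the most abundant was Gabarapl1 at 866 ± 49.8 TPM in WT and 799 ± 50.1 TPM in GFAP-IL6 mice (SD, n = 3 per group). It was followed in WT by Gabbr1 at 315 ± 21.7, Slc12a5 at 300 ± 56.7 and Gad1 at 256 ± 7.06 TPM (SD, n = 3 each), of which Gabbr1 and Slc12a5 did not differ beyond their spread. The lowest was Gabrq at 0.513 ± 0.026 TPM in WT (SD, n = 3), preceded by Slc6a13 at 7.47 ± 2.62 and Gabrg3 at 10.5 ± 0.428 TPM (SD, n = 3 each). The most abundant GABA-A subunit of the list was Gabra3, at 129 ± 8.77 TPM in WT, followed by Gabrd at 118 ± 1.05 TPM (SD, n = 3 each).

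**Figure D3:**
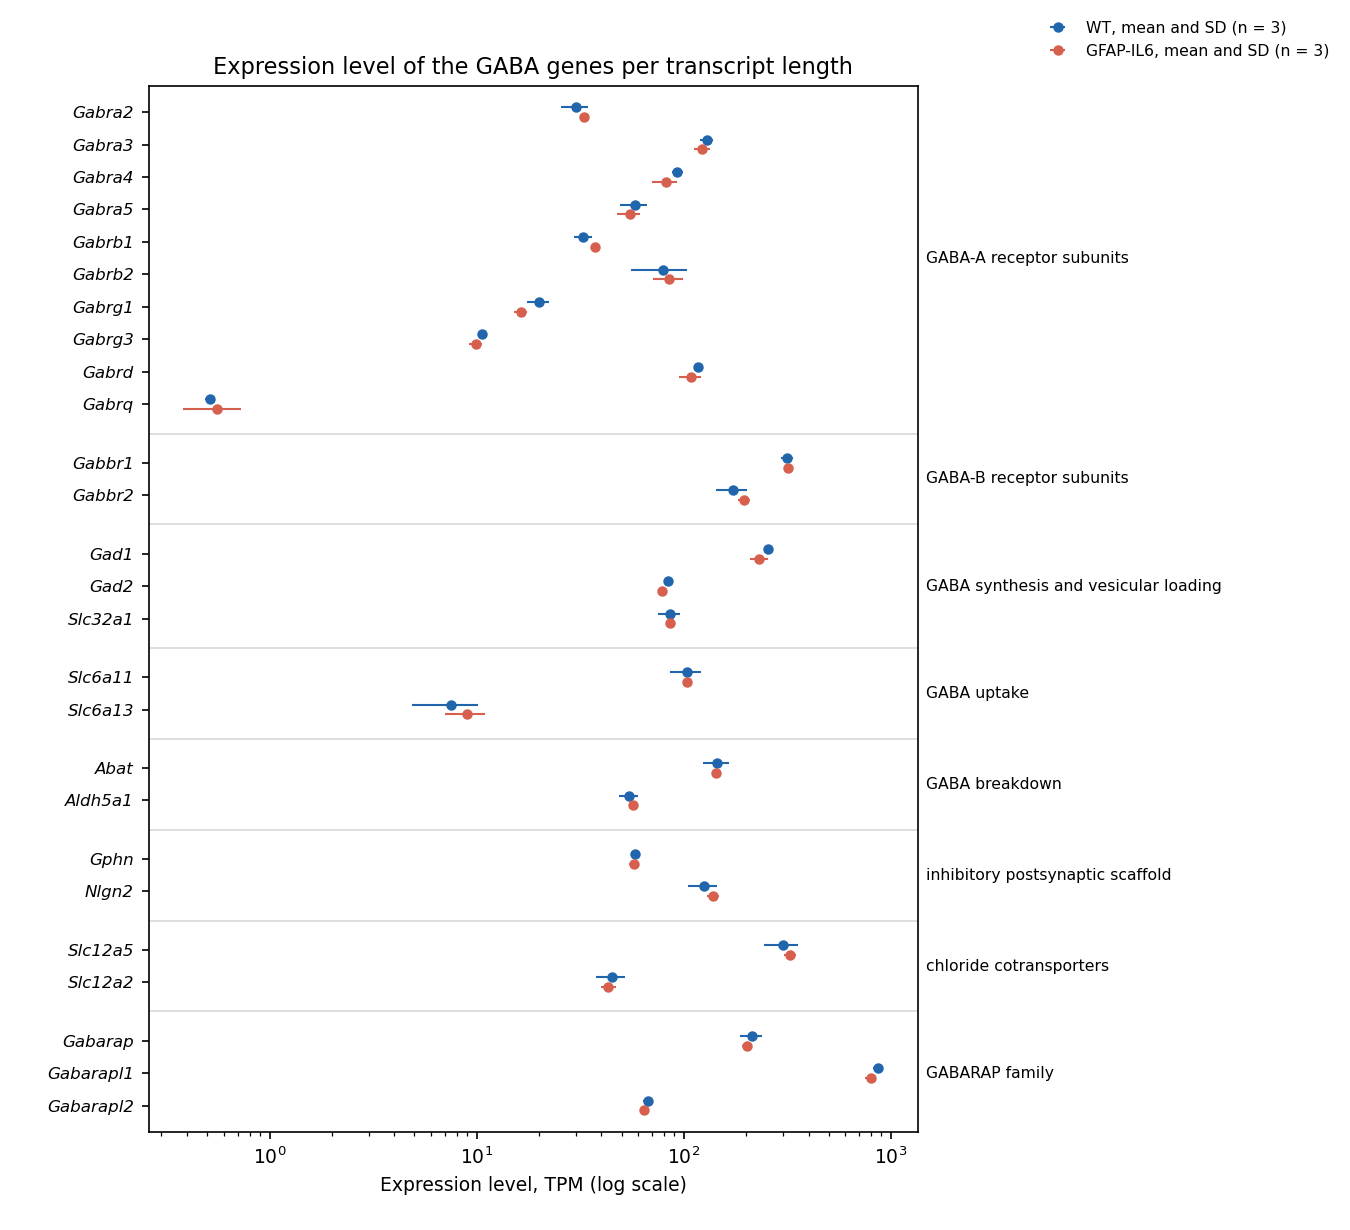
Expression level of each GABA gene per gene length (TPM, log axis), as the mean of 3 WT and 3 GFAP-IL6 libraries with the SD. The levels run from 0.513 TPM for Gabrq to 866 TPM for Gabarapl1 in WT, and Gabrg1, the gene with the largest log2 fold change in size, is at 19.9 TPM in WT and 16.3 TPM in GFAP-IL6.

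Both decarboxylases of GABA synthesis lay lower in every GFAP-IL6 library than in any WT library, although neither was called, and the libraries of the vesicular transporter overlapped between the groups. Gad1 (ENSMUSG00000070880.8; mm10, chromosome 2, 70553072 to 70602014, plus strand) encodes the decarboxylase that makes most of the GABA of the cell body. It was at 404, 409 and 395 CPM in WT and 359, 371 and 308 CPM in GFAP-IL6. The WT libraries were tight (403 ± 7.19 CPM), and GFAP-IL6 replicate 3 was the lowest of a wider group (346 ± 33.3 CPM, SD, n = 3 each). The log2 fold change of Gad1 was -0.22 ± 0.085 (SE, edgeR unadjusted p = 0.0230, adjusted p = 0.180), and it was -0.14 without GFAP-IL6 replicate 3 (edgeR adjusted p = 0.493).

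Gad2 (ENSMUSG00000026787.3; chromosome 2, 22622205 to 22693874, plus strand) encodes the decarboxylase concentrated at nerve terminals. It was at 178, 179 and 166 CPM in WT and 161, 154 and 149 CPM in GFAP-IL6, so the groups were separated by a gap smaller than the range within either one. Its log2 fold change was -0.17 ± 0.078 (SE, edgeR unadjusted p = 0.0469, adjusted p = 0.238). Without WT replicate 2 the values were -0.21 (p of 0.0248) for Gad1 and -0.15 (p of 0.0684) for Gad2, both by edgeR before adjustment. Slc32a1 (ENSMUSG00000037771.11; chromosome 2, 158610767 to 158615748, plus strand) encodes the vesicular GABA transporter. It was at 93.3, 76.8 and 87.9 CPM in WT and 83.2, 85.7 and 78.3 CPM in GFAP-IL6, and the WT libraries enclosed all GFAP-IL6 libraries, with WT replicate 2 lowest. The log2 fold change of Slc32a1 was -0.06 ± 0.091 (SE, edgeR adjusted p = 0.736), and without WT replicate 2 it was -0.14, with all GFAP-IL6 libraries then below both WT libraries. The difference between Slc32a1 and the decarboxylases was not tested. Of the exon bases of Slc32a1, 24.9% are shared with exons of a transcript from the other strand, and the reads of both cannot be told apart where strand is not used in counting.

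Markers of the cells that make GABA also had mostly negative log2 fold changes, and none was called. Of 14 cortical interneuron markers, 11 had a negative and 3 a positive log2 fold change, with a median of -0.13. By edgeR 0 were called, and 5 were lower at an unadjusted p under 0.05, beside 9.37% of all genes. Without WT replicate 2 the number was also 5, beside 5.96% of all genes, and the median was -0.19. With the offset for GC content and gene length it was 2, beside 6.56% of all genes. The list summed to 1141 to 1224 CPM in WT and 1050 to 1124 CPM in GFAP-IL6, and no marker was at 0 in any library. The 10 markers of neurons of all kinds summed to 10241 to 10427 CPM in WT and 8901 to 9941 CPM in GFAP-IL6, with 0 called. They too had mostly negative log2 fold changes, 8 negative and 2 positive, with a median of -0.090. At an unadjusted p under 0.05 by edgeR, 3 were lower, beside 9.37% of all genes. Without WT replicate 2 the number was 2, beside 5.96%, and with the offset 1, beside 6.56%. The part of either list in the values of Gad1 and Gad2 was not tested.

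**Figure D4:**
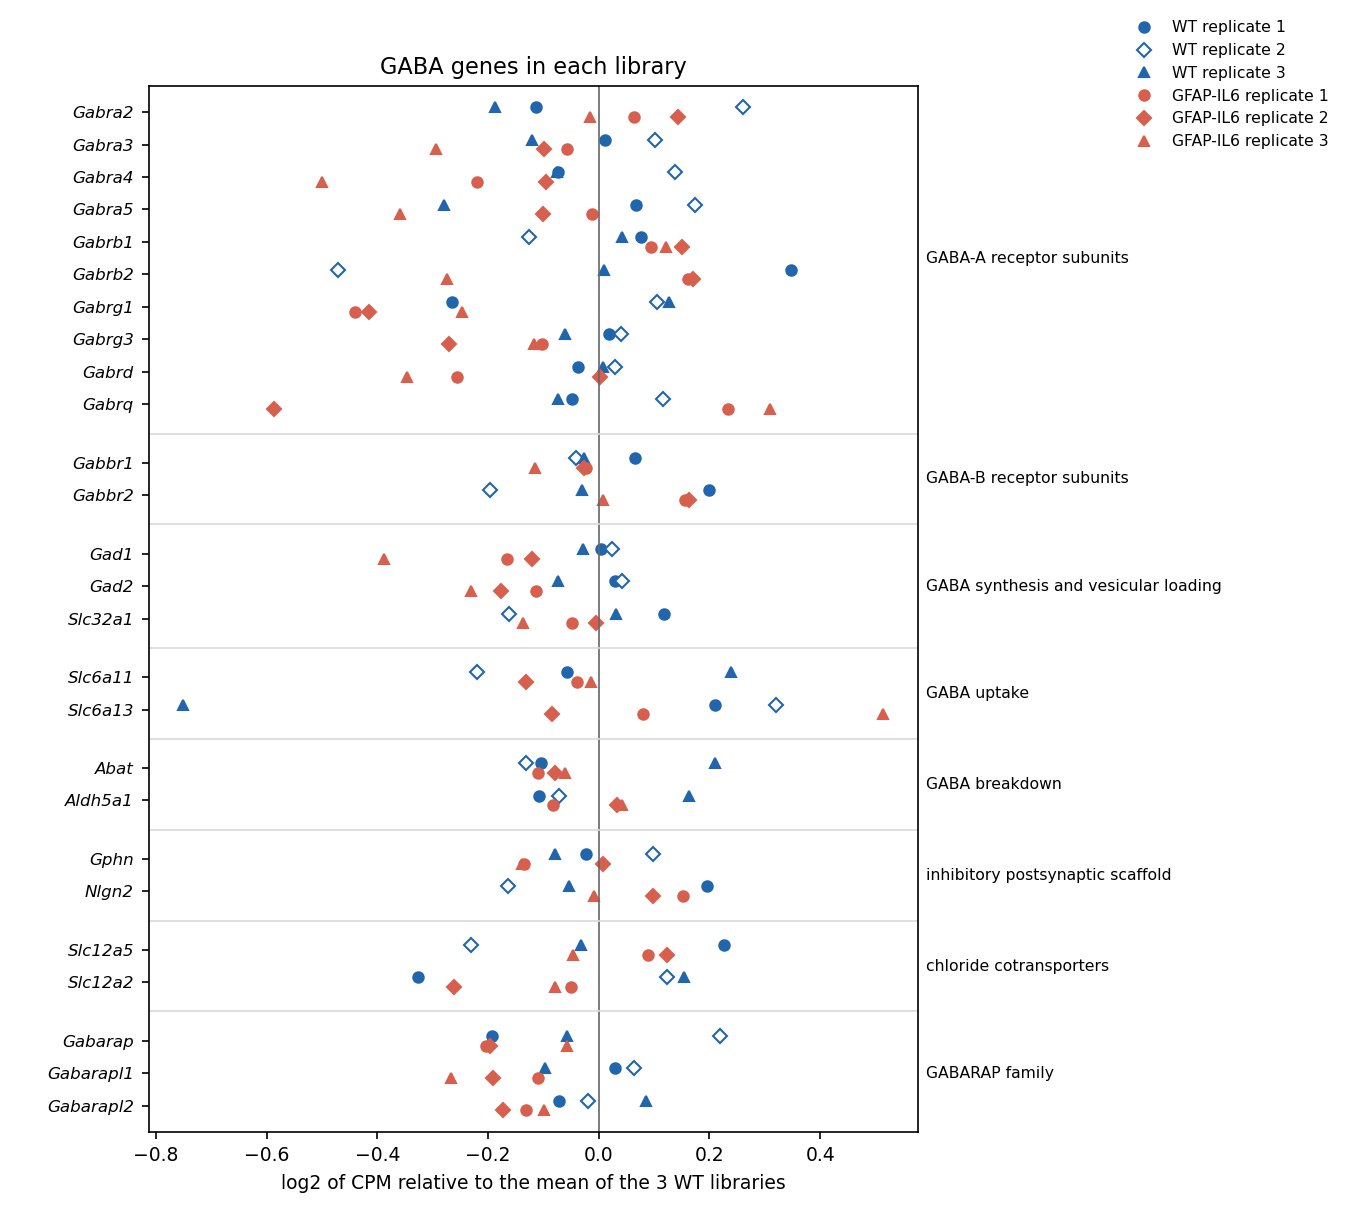
Level of each GABA gene in each library, as log2 of CPM relative to the mean of the 3 WT libraries, grouped by function (WT in blue, GFAP-IL6 in red, WT replicate 2 as open diamonds). The 3 GFAP-IL6 points lie to the left of the 3 WT points for Gabra4, Gabrg3, Gad1, Gad2, Gabarapl1 and Gabarapl2 and to the right for Gabrb1.

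The 10 GABA-A subunits showed no common direction, with 6 negative and 4 positive log2 fold changes and a median of -0.15. Gabrg1 (ENSMUSG00000001260.8; chromosome 5, 70751047 to 70842617, minus strand), a gamma subunit, had the largest log2 fold change in size of all 26 genes. It was at 28.6, 36.9 and 37.5 CPM in WT and 25.3, 25.8 and 28.9 CPM in GFAP-IL6. WT replicates 2 and 3 were clearly above all GFAP-IL6 libraries, whereas WT replicate 1 lay just below GFAP-IL6 replicate 3. The log2 fold change was -0.37 ± 0.117 (SE), which amounts to a fold of 0.773 with a 95% interval of 0.648 to 0.921, and the adjusted p was 0.113 by edgeR (p of 0.00749). Leaving out WT replicate 2 gave -0.32, and the offset for GC content and gene length gave -0.27. The GC content of its transcript was 35.3%. Oligodendrocyte markers, which summed to 3539 CPM in WT replicate 1, 6619 and 6012 CPM in the other two WT libraries and 3622 to 5651 CPM in GFAP-IL6, had their lowest WT value in the same library as Gabrg1, and their part in it was not tested.

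Gabra4 (ENSMUSG00000029211.9; chromosome 5, 71569749 to 71658308, minus strand) encodes an alpha subunit found mostly in receptors outside synapses, often together with the delta subunit. It was at 134, 155 and 133 CPM in WT and 121, 132 and 99.4 CPM in GFAP-IL6. GFAP-IL6 replicate 2 came within 2 CPM of the lowest WT library, and GFAP-IL6 replicate 3 was far below the rest. The log2 fold change was -0.26 ± 0.107 (SE, edgeR unadjusted p = 0.0292, adjusted p = 0.195), and -0.19 (p of 0.0703) without WT replicate 2. Without GFAP-IL6 replicate 3 it was -0.15 (edgeR adjusted p = 0.536). Gabrd, the delta subunit, was at 79.4, 83.1 and 81.9 CPM in WT and 68.2, 81.6 and 64.1 CPM in GFAP-IL6. GFAP-IL6 replicate 2 of Gabrd lay inside the WT group and the other two below it, and the log2 fold change was -0.20 ± 0.095 (SE), with a p of 0.0618 by edgeR before adjustment, and -0.12 without GFAP-IL6 replicate 3.

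Gabrb1 (ENSMUSG00000029212.9; chromosome 5, 71658113 to 72149037, plus strand), a beta subunit, was the only GABA gene with all GFAP-IL6 libraries above all WT libraries, at 172, 179 and 175 CPM against 170, 148 and 166 CPM. The groups were separated by 172 against 170 CPM, and the log2 fold change was 0.12 ± 0.081 (SE, edgeR adjusted p = 0.410). Without WT replicate 2, the lowest library, it was 0.06. Gabrg3 (ENSMUSG00000055026.11; chromosome 7, 56716465 to 57387188, minus strand), another gamma subunit, was at 42.8, 43.4 and 40.5 CPM in WT and 39.4, 35.0 and 39.0 CPM in GFAP-IL6. The groups of Gabrg3 did not overlap but lay close, with a log2 fold change of -0.16 ± 0.086 (SE, edgeR adjusted p = 0.319).

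The remaining 5 subunits overlapped between the groups, with adjusted p values from 0.378 to 0.933 by edgeR. Gabra3, an alpha subunit most abundant early in life, was at 165 to 193 CPM in WT and 147 to 173 CPM in GFAP-IL6 (log2 fold change -0.15, and -0.09 without WT replicate 2). Gabra5, an alpha subunit of receptors outside synapses, was at 45.5 to 62.3 CPM in WT and 43.1 to 54.8 CPM in GFAP-IL6 (log2 fold change -0.15, and -0.05 without WT replicate 2). Gabra2, an alpha subunit of synapses on the start of the axon, was at 58.7, 76.1 and 55.8 CPM in WT and 66.4, 70.1 and 62.9 CPM in GFAP-IL6. WT replicate 2 alone placed the WT group across the GFAP-IL6 group, and the log2 fold change of Gabra2 was 0.06 with all libraries and 0.21 (edgeR unadjusted p = 0.0160, adjusted p = 0.187) without it. Gabrb2, a beta subunit with a higher level per gene length than Gabrb1 (79.5 against 32.6 TPM in WT), was at 84.3 CPM in WT replicate 2 and 96.6 to 149 CPM in the other libraries, with a log2 fold change of 0.04 that became -0.15 without that library. Gabrq, the theta subunit, had 5 to 18 counts per library and a 95% interval of the fold change from 0.626 to 1.75, so the depth does not allow a statement on it.

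Several subunit genes lie side by side in the genome, and their values did not always have the same sign. On chromosome 5, in the order Gabrg1, Gabra2, Gabra4 and Gabrb1, the log2 fold changes were -0.37, 0.06, -0.26 and 0.12. On chromosome 7, Gabrg3 and Gabra5 gave -0.16 and -0.15, and on chromosome X, Gabra3 and Gabrq gave -0.15 and 0.07. None of these genes was called by edgeR.

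The subunits of the GABA-B receptor overlapped between the groups. Gabbr1, which binds GABA, was at 785, 729 and 736 CPM in WT and 738, 736 and 692 CPM in GFAP-IL6. WT replicate 1 was the highest and GFAP-IL6 replicate 3 the lowest library, and the log2 fold change was -0.05 ± 0.076 (SE, edgeR adjusted p = 0.712). With the offset for GC content and gene length it was -0.16, with a p of 0.0200 before adjustment by edgeR. Gabbr2, which carries the receptor to the surface and couples it to G proteins, was at 409, 310 and 348 CPM in WT and 396, 398 and 358 CPM in GFAP-IL6. WT replicate 2 was the lowest, and the log2 fold change of 0.11 ± 0.101 (SE, edgeR adjusted p = 0.550) was 0.02 without it.

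GABA uptake and breakdown genes overlapped between the groups. Slc6a11, a GABA transporter of astrocytes, was at 145, 130 and 178 CPM in WT and 147, 138 and 150 CPM in GFAP-IL6, all GFAP-IL6 values lying within the WT range (log2 fold change -0.06, edgeR adjusted p = 0.784, and -0.16 without WT replicate 2). The 10 astrocyte markers, of which Gfap was not one, summed to 5281, 5563 and 6656 CPM in WT and 5803, 6063 and 6786 CPM in GFAP-IL6, with 0 called. At an unadjusted p under 0.05 by edgeR, 1 was higher (Aqp4, log2 fold change 0.42) and 1 lower (Aldh1l1, -0.21), beside 11.1% and 9.37% of all genes. Without WT replicate 2, Aqp4 was called higher, beside 3.27% of all genes in either direction, and Aldh1l1 was at -0.25. The highest WT library was the same for the astrocyte markers and for Slc6a11. Abat, the transaminase that takes GABA apart, was at 257, 252 and 320 CPM in WT and 256, 262 and 265 CPM in GFAP-IL6. WT replicate 3 was the highest for Abat as well, and the log2 fold change of -0.08 (edgeR adjusted p = 0.647) was 0.03 without that library and -0.15 without WT replicate 2. Aldh5a1, which oxidises the product of Abat, was at 103, 105 and 124 CPM in WT and 105, 113 and 114 CPM in GFAP-IL6. For Aldh5a1 the log2 fold change was -0.0032, with a 95% interval of the fold change from 0.869 to 1.15, the value nearest to 0 among the 26 genes, and it was -0.04 without WT replicate 2. Of its exon bases, 17.7% are shared with exons of transcripts from the other strand.

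Slc6a13 encodes a GABA transporter known from the meninges. It had 43 to 126 counts per library, at 6.97, 7.52 and 3.58 CPM in WT and 6.36, 5.68 and 8.60 CPM in GFAP-IL6. WT replicate 3 was the lowest and GFAP-IL6 replicate 3 the highest library, and the log2 fold change of 0.20 ± 0.263 (SE, edgeR adjusted p = 0.692) had a 95% interval of -0.37 to 0.77. It was 0.43 without WT replicate 2 and -0.08 without WT replicate 3. The 12 markers of leptomeningeal fibroblasts summed to 139, 170 and 106 CPM in WT and 114, 104 and 178 CPM in GFAP-IL6, so both were highest in GFAP-IL6 replicate 3. Their part in the level of Slc6a13 was not tested.

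The postsynaptic scaffold genes also overlapped. Gphn, which encodes gephyrin, the protein that anchors GABA-A receptors at inhibitory synapses, was at 70.0, 76.2 and 67.4 CPM in WT and 64.8, 71.6 and 64.6 CPM in GFAP-IL6 (log2 fold change -0.09, edgeR adjusted p = 0.569, and -0.04 without WT replicate 2). Nlgn2, the neuroligin of inhibitory synapses, was at 295, 230 and 248 CPM in WT and 287, 276 and 256 CPM in GFAP-IL6. WT replicate 2 was again the lowest for Nlgn2, and the log2 fold change of 0.08 (edgeR adjusted p = 0.659) was 0.0064 without it, and the offset for GC content and gene length gave -0.07.

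The chloride cotransporters overlapped between the genotypes. Slc12a5 (ENSMUSG00000017740.14; chromosome 2, 164960802 to 164999731, plus strand) encodes the neuronal potassium-chloride cotransporter that extrudes chloride, and Slc12a2 (ENSMUSG00000024597.10) the sodium-potassium-chloride cotransporter that takes it up. Slc12a5 was at 781, 569 and 653 CPM in WT and 711, 727 and 647 CPM in GFAP-IL6. WT libraries formed the wider group, with WT replicate 2 lowest, and the log2 fold change was 0.06 ± 0.108 (SE, edgeR adjusted p = 0.793). Without WT replicate 2 it was -0.05, and with the offset for GC content and gene length -0.08. Slc12a2 was at 84.1, 115 and 117 CPM in WT and 102, 88.1 and 99.9 CPM in GFAP-IL6, with a log2 fold change of -0.13 ± 0.120 (SE, edgeR adjusted p = 0.566) that was -0.07 without WT replicate 2. WT replicate 1 was the lowest and WT replicate 3 the highest library for Slc12a2, the libraries in which oligodendrocyte markers were at their lowest and choroid plexus markers at their highest. The part of either list in the level of Slc12a2 was not tested.

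The log2 ratio of Slc12a5 to Slc12a2 counts per gene length, a summary of chloride extrusion against uptake at the level of transcripts, was 3.29, 2.38 and 2.55 in WT and 2.87, 3.12 and 2.77 in GFAP-IL6. All GFAP-IL6 values lay inside the WT range. The WT mean was 2.74 ± 0.483 and the GFAP-IL6 mean 2.92 ± 0.180 (SD, n = 3 each), which correspond to ratios of 6.66 and 7.56. The difference of 0.18 had an exact two-sided permutation p of 0.6, where the smallest p that 3 against 3 libraries allow is 0.1. Without WT replicate 2 the WT mean was also 2.92.

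The GABARAP family takes its name from the binding of GABARAP to a GABA-A receptor subunit, and its proteins also act in receptor trafficking and autophagy. All 3 genes had negative log2 fold changes. Gabarapl1 (ENSMUSG00000030161.6; chromosome 6, 129533160 to 129542346, plus strand) was at 562, 575 and 515 CPM in WT and 510, 483 and 458 CPM in GFAP-IL6. The highest GFAP-IL6 library lay just below the lowest WT library, and the log2 fold change was -0.19 ± 0.080 (SE, edgeR unadjusted p = 0.0370, adjusted p = 0.214). With the offset for GC content and gene length it was -0.11, with a p of 0.114 by edgeR before adjustment. Of the exon bases of Gabarapl1, 28.3% are shared with exons of a transcript from the other strand.

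Gabarapl2 (ENSMUSG00000031950.7; chromosome 8, 111940703 to 111953612, plus strand) was at 38.7, 40.1 and 43.1 CPM in WT and 37.1, 36.1 and 38.0 CPM in GFAP-IL6. The groups were separated by less than 1 CPM, with a log2 fold change of -0.13 ± 0.085 (SE, edgeR adjusted p = 0.386). With the offset for GC content and gene length its sign changed, to 0.03. Gabarap itself was at 90.8, 121 and 99.8 CPM in WT and 90.2, 90.6 and 99.8 CPM in GFAP-IL6, where WT replicate 2 was the highest. Its log2 fold change of -0.15 (edgeR adjusted p = 0.428) was -0.03 without WT replicate 2.

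A further list of 38 genes of the same pathway was examined beside these, among them the remaining receptor subunits, glutamine and glutamate enzymes and carriers, receptor auxiliary and trafficking proteins, and the Dlx transcription factors of interneuron development. Of these, 36 had a row and 29 were tested. By edgeR 0 of the 29 were called, and at an unadjusted p under 0.05, 2 were higher and 2 lower, a smaller share in each direction than the 11.1% and 9.37% of all genes tested. DESeq2 called 1, beside 3.65% of all genes, and limma-voom 0. The edgeR fit without a low-count filter called 4, among them Slc6a12 and Shisa7, beside 5.10% of all genes. The median log2 fold change was -0.05, with 11 positive and 18 negative values.

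Shisa7, an auxiliary protein of GABA-A receptors, and Iqsec3, a partner of gephyrin, were the 2 genes of this list with the smallest p among those higher in GFAP-IL6, and both lay higher in every GFAP-IL6 library than in any WT library. Shisa7 was at 167, 111 and 142 CPM in WT and 179, 179 and 188 CPM in GFAP-IL6, which gave a log2 fold change of 0.38 ± 0.122 (SE, edgeR adjusted p = 0.117). Iqsec3 was at 234, 180 and 229 CPM in WT and 251, 268 and 269 CPM in GFAP-IL6, which gave a log2 fold change of 0.29 ± 0.1004 (SE, edgeR adjusted p = 0.140). WT replicate 2 was the lowest library of both, and without it the values were 0.24 and 0.18, with adjusted p values of 0.164 and 0.252 by edgeR. Shisa7 was called without WT replicate 1 (log2 fold change 0.53, edgeR adjusted p = 0.016).

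The 7 genes of the further list that were not tested were near the limit of detection. Gabra6 and Gabrp, subunits found mainly outside the cortex, had 0 counts in all libraries, which allows levels of up to 0.178 to 0.397 CPM depending on the library. Gabre, Gabrr1 and Gabrr3 reached no more than 4 counts per library, and Gabrr2 had 6 to 20. Slc6a12, a carrier of betaine and GABA, is named here after its values were seen. Its counts were 5, 14 and 2 in the WT mice and 14, 5 and 20 in the GFAP-IL6 mice. Among the fits that left out a library it was called only without WT replicate 2, with a log2 fold change of 2.398 and an edgeR adjusted p = 0.0453. Its levels in the libraries of that fit were 0.436 and 0.126 CPM in WT and 1.25, 0.660 and 2.23 CPM in GFAP-IL6. It passed the filter there only through GFAP-IL6 libraries, the group where it was high, so this call is no evidence of a difference.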

How the data were processed

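Messenger RNA of frontal cortex was sequenced from 6 mice, 1 library per mouse, and the titles gave group and replicate number. The authors deposited raw counts per gene and library, as whole numbers, with a length for each gene. The study's methods state alignment with STAR (version 2.4 in the submitters' processing notes) to mm10 and counting over GENCODE genes with featureCounts. The processing notes list hg19 instead, but all identifiers in the table are mouse genes. Whether strand was used in counting is not given in the sources used here. Columns left unused numbered 0.

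The members and gene lists were chosen with earlier results of these data known. The main test was the quasi-likelihood F-test of edgeR 4.0.16 under R 4.3.3 (TMM scaling, filterByExpr, Benjamini-Hochberg adjustment over all genes tested, no covariate), and a gene was called at an adjusted p under 0.05. DESeq2 1.42.0 (the study's tool) and limma-voom (limma 3.58.1) were run beside it, with other scalings, filters and each library left out in turn. An offset for each library's trend over GC content and gene length, scaling by total counts, and log2(TPM + 0.5) with limma-trend were added after seeing the data. The fits were tested on simulated counts with the same dispersion for all genes and no trend over GC content or gene length. That simulation does not cover differences between libraries such as those of WT replicate 2. Nor does it cover changes as small as those of the GABA genes. Standard errors were derived from the F statistic, and SDs are over the 3 libraries of a group. Genes were described in full when past an adjusted or unadjusted p of 0.05 or when the groups did not overlap, together with Gad1, Gad2, Slc32a1, Slc12a5 and Slc12a2. Genes of the further list were named when called or among the 4 smallest p, and some of these are not reported here.

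Positions, exon overlaps and GC content came from GENCODE release M21 on GRCm38, the assembly of mm10, in which 64 of 64 genes looked up were found. Totals of 7559524 to 16877001 counts put the floor of 3 counts at 0.178 to 0.397 CPM, which covers counting error only. No 2 libraries were the same within sampling noise (chi-square per degree of freedom of 2.32 to 21.6 over 15 pairs). Same-numbered WT and GFAP-IL6 libraries had correlations of their deviations of 0.11, 0.017 and 0.035, which do not settle whether they were paired. Replicate numbers were not treated as pairs in the main test, and a fit with a replicate block was run beside it.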

Additional observations from a re-analysis of the deposited data

How the results depend on the processing

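The number of GABA genes called was 0 under DESeq2, limma-voom, DESeq2 size factors, a mean CPM of at least 1, the replicate block, the GC and length offset, total-count scaling and log2(TPM + 0.5). It was 1 without a low-count filter (Gabrg1, log2 fold change -0.37, adjusted p of 0.0318 by edgeR), beside 5.10% of all genes. When a library was left out it was 0 to 1 (Gabrg1 without WT replicate 1, -0.48, beside 6.83% of all genes). At an unadjusted p under 0.05 the number was 3 with total-count scaling, 1 with log2(TPM + 0.5) and 6 with the replicate block, all lower. The shares of all genes at that p are not given here for these 3 fits. When a library was left out the number was 1 to 7. The 1 was lower, without GFAP-IL6 replicate 3, beside 4.91% of all genes lower. The 7 were 5 lower and 2 higher, without WT replicate 1, beside 12.9% and 14.6% of all genes. Of the further list, DESeq2 called 1, beside 3.65% of all genes, and omission of the filter 4 (Slc6a12 and Shisa7 among them), beside 5.10%. The replicate block called 2, beside 750 of all 15341 genes. Leaving out a library gave 0 to 1 (Shisa7 without WT replicate 1, Slc6a12 without WT replicate 2), beside 6.83% and 3.27% of all genes in these 2 fits. Slc6a12 passed the filter in its fit only through GFAP-IL6 libraries, where it was high. The median log2 fold change of the GABA genes stayed negative under every alternative named here, but was only -0.00998 with log2(TPM + 0.5), where the median of all genes was 0.066. The difference in the Slc12a5 to Slc12a2 log2 ratio kept its sign, from 0.0019 without WT replicate 2 to 0.46 without WT replicate 1. Without WT replicate 1 the groups no longer overlapped, and the exact permutation p was 0.1, the smallest that the remaining libraries allow. The cause of these shifts was not tested.

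Small log2 fold changes changed sign. With the GC and length offset, Gabbr2 was -0.0016, Nlgn2 -0.065, Slc12a5 -0.084 and Gabarapl2 0.029. With log2(TPM + 0.5), Gabbr1 was 0.017, Slc32a1 0.013, Slc6a11 0.022 and Aldh5a1 0.073. Aldh5a1 was also 0.00094 with limma-voom, 0.0018 with the replicate block and 0.021 with total-count scaling. When a library was left out, the values ranged from -0.027 to 0.22 for Gabra2, from -0.15 to 0.25 for Gabrb2, from -0.062 to 0.26 for Gabrq, from -0.14 to 0.0015 for Slc32a1, from -0.16 to 0.076 for Slc6a11, from -0.076 to 0.43 for Slc6a13, from -0.15 to 0.033 for Abat, from -0.052 to 0.086 for Aldh5a1 and from -0.047 to 0.19 for Slc12a5. Gad1, Gad2, Gabra4, Gabrg1, Gabrg3, Gabarapl1 and Gabrb1 kept their sign under every alternative. So did Gabra3, Gabra5, Gabrd, Gphn, Slc12a2 and Gabarap, so a stable sign does not set the former genes apart.

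Replicate numbers are shared between the groups. Same-numbered libraries correlated in their deviations by 0.11, 0.017 and 0.035, and the other pairs by -0.086 to 0.052. WT replicate 2 correlated best with GFAP-IL6 replicate 3 (0.052). Whether same-numbered libraries share more than a number cannot be told from these small values. The replicate block gave 750 genes called over all genes (594 higher, 156 lower) in place of 439 (407 higher, 32 lower), and a smallest adjusted p of 0.0571 for a GABA gene. Other counts over all genes were 1154 without the filter (801 higher, 353 lower), 560 with DESeq2 (458 higher, 102 lower), 1061 without WT replicate 1 (692 higher, 369 lower), 282 without GFAP-IL6 replicate 2 and 187 without GFAP-IL6 replicate 3. The GFAP-IL6 libraries were the shallower ones, and counts of 5 to 18 for Gabrq and 43 to 126 for Slc6a13 limit what can be said of these genes.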

Other observations

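Single interneuron markers varied in size, and 0 of the 14 were called by edgeR. At an unadjusted p under 0.05, 5 were lower, beside 9.37% of all genes. Sst, a peptide of a large interneuron class, was at 157, 169 and 158 CPM in WT and 125, 117 and 141 CPM in GFAP-IL6, which gave a log2 fold change of -0.34 with an edgeR adjusted p = 0.0619. The groups of Sst did not overlap. With the offset for GC content and gene length its log2 fold change was -0.18 (edgeR adjusted p = 0.222). Pvalb, the calcium-binding protein of fast-spiking interneurons, was at 69.9, 86.4 and 85.9 CPM in WT and 61.2, 72.0 and 62.2 CPM in GFAP-IL6 (log2 fold change -0.32, edgeR adjusted p = 0.123), and the offset gave -0.13 (edgeR adjusted p = 0.432). Lhx6, a transcription factor of both classes, overlapped between the groups, at 21.3, 18.1 and 21.2 CPM in WT and 19.0, 21.3 and 16.7 CPM in GFAP-IL6 (log2 fold change -0.09, edgeR adjusted p = 0.702). The other markers at an unadjusted p under 0.05 were Vip, Htr3a and Nxph1, with log2 fold changes of -0.35, -0.52 and -0.23 (edgeR adjusted p of 0.149, 0.212 and 0.198). With the offset these were -0.11, -0.47 and -0.18. The 3 markers with positive log2 fold changes were Adarb2 (0.15), Kcnc1 (0.086) and Reln (0.034). The genes of this paragraph were named after their values were seen.

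Of the other lists fixed as markers, 10 excitatory neuron, 8 thalamic and 7 tested olfactory bulb genes gave 0 calls by edgeR. At an unadjusted p under 0.05, 1 excitatory and 1 olfactory bulb gene were lower. Of the thalamic genes, 2 were higher and 1 lower at that p, beside 11.1% higher and 9.37% lower of all genes. The median log2 fold changes of the 3 lists were 0.03, 0.11 and -0.20. Without WT replicate 2, 1 excitatory gene was called, Rorb, which was lower (log2 fold change -0.44, edgeR adjusted p = 0.0129). In that fit 3.27% of all genes were called in either direction. The median of the striatal list was -0.44 with 0 called, and 0.25 without WT replicate 2, where 2 genes, Rgs9 and Pde10a, were called higher by edgeR. These 3 genes were also named after their values were seen.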
